A study of Mus musculus with 12 samples.

Results

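The immediate early genes Fos, Fosb, Jun, Junb, Egr1, Egr2, Egr3, Nr4a1, Ier2 and Dusp1 were followed through mature B cells of mouse bone marrow. They were taken as the rows of the count table whose Entrez identifier maps to these symbols, which gave 10 genes of 27179 in the table, and all 10 passed the filter on low counts. The cells came from C57BL/6 mice and had been sorted by a high level of B220, the presence of IgM and the absence of CD93. RNA was counted in 12 libraries, 3 in each of 4 groups. Old wild-type mice were 98, 99 and 100 weeks of age, and young wild-type mice were 9, 10 and 11 weeks of age. The other groups were 10 weeks of age and both lacked Bak1, a protein that opens the outer mitochondrial membrane in apoptosis. Apoptosis-resistant mice (Bak-/- BaxD/D) also carried a deleted Bax, which codes for the partner protein of Bak1, and apoptosis-sensitive mice (Bak-/- Baxfl/fl) carried a Bax flanked by loxP sites. The labels do not say which promoter or which cells deleted Bax. Per the series' design text, the 3 libraries a group are biological replicates. The collection date in the labels pairs the libraries. An old and a young library shared each of 24 March, 11 April and 12 April, and an apoptosis-resistant and an apoptosis-sensitive library shared each of 7 May, 30 May and 31 May. The labels give the year 2006 for the libraries of 24 March and 2016 for all others.

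Immediate early genes are transcribed within minutes of a signal, from factors that already sit in the cell, and need no new protein synthesis. In B cells they are known to respond to the antigen receptor, to growth and survival signals and to stress, through MAP kinases that act on SRF with its ELK partners and on CREB at the promoter. Fos, Fosb, Jun and Junb code for subunits of the dimeric transcription factor AP-1. Egr1, Egr2 and Egr3 code for zinc finger transcription factors, and Nr4a1 codes for the orphan nuclear receptor Nur77, which is widely used as a reporter of antigen receptor signalling. Dusp1 codes for a phosphatase that switches MAP kinases off, and Ier2 codes for a small nuclear protein.

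Because most of these genes turned out to move together, the sequence before their start sites is shown for 5 of those that hold the motifs searched. RefSeq promoter sequences (build GRCm38.p6) were matched for 7 of the 10 genes (Fos, Fosb, Jun, Junb, Egr2, Nr4a1 and Dusp1). The windows are the 250 bases before the start, written 5′ to 3′ on the strand of the gene. They lie at chr12:85473640-85473889 on the plus strand (Fos), chr7:19310046-19310295 on the minus strand (Fosb), chr15:101266596-101266845 on the plus strand (Nr4a1), chr17:26508473-26508722 on the minus strand (Dusp1) and chr10:67537619-67537868 on the plus strand (Egr2, 1 of 5 annotated starts). Capitals mark TGACG on either strand, the core of the site that CREB and ATF proteins bind, and the CArG box, the site that SRF binds.
Fos: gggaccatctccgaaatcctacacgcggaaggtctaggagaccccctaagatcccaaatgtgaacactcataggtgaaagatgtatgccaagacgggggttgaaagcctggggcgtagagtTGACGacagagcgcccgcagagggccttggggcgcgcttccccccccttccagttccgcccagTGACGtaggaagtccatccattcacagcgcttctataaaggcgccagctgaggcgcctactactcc
Fosb: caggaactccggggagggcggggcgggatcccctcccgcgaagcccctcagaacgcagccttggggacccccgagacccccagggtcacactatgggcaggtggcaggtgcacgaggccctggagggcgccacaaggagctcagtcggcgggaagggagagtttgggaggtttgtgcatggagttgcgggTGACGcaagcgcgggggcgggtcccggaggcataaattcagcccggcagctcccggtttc
Nr4a1: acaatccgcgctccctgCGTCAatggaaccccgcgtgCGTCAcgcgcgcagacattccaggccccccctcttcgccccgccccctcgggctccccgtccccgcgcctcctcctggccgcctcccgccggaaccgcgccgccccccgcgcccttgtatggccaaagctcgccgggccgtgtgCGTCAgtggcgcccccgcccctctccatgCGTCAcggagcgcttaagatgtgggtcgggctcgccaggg
Dusp1: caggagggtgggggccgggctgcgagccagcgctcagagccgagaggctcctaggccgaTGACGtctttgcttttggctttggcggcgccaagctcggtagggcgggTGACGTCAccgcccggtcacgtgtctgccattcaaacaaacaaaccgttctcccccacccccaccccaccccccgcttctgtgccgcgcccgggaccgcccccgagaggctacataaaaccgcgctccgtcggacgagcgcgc
Egr2: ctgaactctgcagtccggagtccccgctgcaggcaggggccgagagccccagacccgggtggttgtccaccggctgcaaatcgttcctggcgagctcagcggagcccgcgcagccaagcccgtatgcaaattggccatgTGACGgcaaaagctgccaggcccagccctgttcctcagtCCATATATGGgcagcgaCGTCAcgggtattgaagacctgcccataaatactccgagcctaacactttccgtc
TGACG was present in 6 of the 7 genes with a sequence, all but Jun, against 19.8% of 27025 genes with a window of the same length. Egr2 counted through some of its 5 windows only: those that begin at chr10:67535249 and chr10:67537316 held no TGACG. Its first base lay 129 and 66 bases before the start of Fos, 60 bases before that of Fosb, and 233, 213, 69 and 40 bases before that of Nr4a1. In Dusp1 a pair of matches on opposite strands overlap as the full palindrome TGACGTCA, which 1.77% of genes held. Within these windows the CArG box was found in Egr2 only among the 7, and in 1.62% of genes. Sites more than 250 bases before a start were not searched. The AP-1 site TGANTCA was found in none of the 7 and in 7.82% of genes. These are letter matches in one window, and no binding was measured.

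Library totals ran from 13474162 to 23539764 counts, and mitochondrial genes took 1.62% to 3.46% of them. Bax was at 4.97 to 8.36 CPM (CPM, counts scaled by TMM to a common library size) in apoptosis-resistant libraries, against 55.7 to 100.1 CPM in apoptosis-sensitive ones. Bak1 was at 6.98 to 14.4 CPM and 6.17 to 12.5 CPM in the apoptosis-resistant and apoptosis-sensitive libraries, against 24.7 to 45.4 CPM in old and 31.7 to 47.9 CPM in young libraries. The 10 B cell markers examined, Cd79a and Ms4a1 among them, summed to 16187 to 22876 CPM, and none was at 0 in any library. The libraries of 24 March and 7 May stood apart from the rest of their groups over all genes. In the wild-type groups, pairs of replicates that included a library of 24 March correlated at 0.918 to 0.938 (log CPM, across genes), against 0.977 in old and 0.967 in young cells for the pair without it. In the Bak1-deficient groups, pairs that included a library of 7 May correlated at 0.956 to 0.971, against 0.986 in apoptosis-resistant and 0.978 in apoptosis-sensitive cells for the pair without it.

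The 10 genes were not expressed at like levels. Per kilobase of exon, the median CPM over the 12 libraries was highest for Ier2 (73.7) and Junb (63.2), followed by Jun (18.5), Fos (11.6), Egr3 (10.1), Egr1 (8.82) and Nr4a1 (8.82). Dusp1 (2.46), Egr2 (2.16) and Fosb (0.789) had the lowest median levels. Those medians hide a wide spread for some of the genes. The highest library exceeded the lowest 653-fold for Fos, 286-fold for Fosb, 57.8-fold for Dusp1, 39.1-fold for Jun and 27.1-fold for Nr4a1. It did so 14.2-fold for Egr1, 12.3-fold for Junb, 10.6-fold for Egr2, 6.08-fold for Ier2 and 2.14-fold for Egr3. For 9 of the 10 genes the highest of the 12 libraries was the apoptosis-sensitive one of 7 May, as it was for 17.2% of all genes tested. Egr3 was highest in the young library of 24 March.

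The values of each library follow, in CPM and in date order, with the library of 24 March or 7 May first in its group. Fos (Entrez gene 14281, chromosome 12, 85473890 to 85477274) had 189.6, 12.8 and 22.7 CPM in old cells, against 608, 31.6 and 35.6 CPM in young cells. It had 275.6, 2.35 and 7.27 CPM in apoptosis-resistant cells, against 1532.5, 9.59 and 3.65 CPM in apoptosis-sensitive cells. The first library of each group stood far above the other two, while old and young libraries overlapped, as did apoptosis-resistant and apoptosis-sensitive ones. In reads, Fos had 32773 in the apoptosis-sensitive library of 7 May and 62 in that of 31 May. Fosb (chromosome 7, 19302696 to 19310118), whose product also pairs with JUN proteins, had 38.6, 3.28 and 2.69 CPM in old cells, against 476, 4.15 and 2.37 CPM in young cells. It had 58.6, 4.14 and 5.70 CPM in apoptosis-resistant cells, against 679, 5.98 and 3.00 CPM in apoptosis-sensitive cells. Outside the libraries of 24 March and 7 May, Fosb thus stayed below 6 CPM in every group.

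Jun (chromosome 4, 95049036 to 95052222), the DNA-binding partner of FOS proteins, had 184.5, 65.7 and 65.8 CPM in old cells, against 229, 52.2 and 50.4 CPM in young cells. It had 232, 32.8 and 36.5 CPM in apoptosis-resistant cells, against 1284, 46.5 and 34.7 CPM in apoptosis-sensitive cells. The first library was again the high one in all 4 groups. Junb (chromosome 8, 84976909 to 84978748), a JUN protein with a lower activating capacity, had 248, 138 and 140.2 CPM in old cells, against 452, 147 and 143 CPM in young cells. It had 434, 110.4 and 116 CPM in apoptosis-resistant cells, against 1354, 140.4 and 149 CPM in apoptosis-sensitive cells. Junb was the most even of the AP-1 genes, and its 8 libraries of the other dates lay between 110.4 and 149 CPM.

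Egr1 (chromosome 18, 34861207 to 34864956) had 66.8, 26.4 and 31.2 CPM in old cells, against 119, 41.2 and 37.1 CPM in young cells. It had 82.7, 37.9 and 45.8 CPM in apoptosis-resistant cells, against 376, 34.6 and 32.5 CPM in apoptosis-sensitive cells. Egr1 followed the AP-1 genes, with the 4 highest libraries on 24 March and 7 May. Egr2 (chromosome 10, 67534469 to 67542188), which is known to restrain lymphocyte activation together with Egr3, had 13.7, 6.86 and 5.75 CPM in old cells, against 8.79, 4.80 and 5.08 CPM in young cells. It had 19.98, 7.79 and 9.21 CPM in apoptosis-resistant cells, against 45.7, 5.24 and 4.29 CPM in apoptosis-sensitive cells. The first library of each group was the highest for Egr2 as well, at lower levels. Egr3 (chromosome 14, 70077317 to 70082613) had 35.3, 33.1 and 35.5 CPM in old cells, against 70.7, 44.2 and 49.3 CPM in young cells. It had 46.3, 45.0 and 48.6 CPM in apoptosis-resistant cells, against 64.2, 43.5 and 35.7 CPM in apoptosis-sensitive cells. Egr3 therefore stood apart from its relatives: the first library was not the highest in old or in apoptosis-resistant cells. All 3 old libraries of Egr3 lay below all 3 young ones, as for 6.96% of all genes tested, and 16.1% were apart in either direction.

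Nr4a1 (chromosome 15, 101253902 to 101274795) had 33.7, 14.4 and 20.7 CPM in old cells, against 142.6, 25.2 and 28.1 CPM in young cells. It had 95.0, 26.3 and 28.2 CPM in apoptosis-resistant cells, against 391, 44.4 and 53.2 CPM in apoptosis-sensitive cells. Old and young libraries of Nr4a1 overlapped only through the old library of 24 March, and the apoptosis groups only through the apoptosis-resistant library of 7 May. Dusp1 (chromosome 17, 26505591 to 26508472) had 25.9, 4.96 and 7.15 CPM in old cells, against 125, 7.49 and 6.40 CPM in young cells. It had 54.0, 6.41 and 5.21 CPM in apoptosis-resistant cells, against 287, 9.47 and 8.82 CPM in apoptosis-sensitive cells. Dusp1 was below 10 CPM in all 8 libraries of the other dates. Ier2 (chromosome 8, 84661331 to 84662852) had 117, 78.9 and 83.0 CPM in old cells, against 138, 106.9 and 92.4 CPM in young cells. It had 226, 99.5 and 105.5 CPM in apoptosis-resistant cells, against 479.9, 119 and 138 CPM in apoptosis-sensitive cells. Ier2 had the narrowest range after Egr3.

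**Figure D1:**
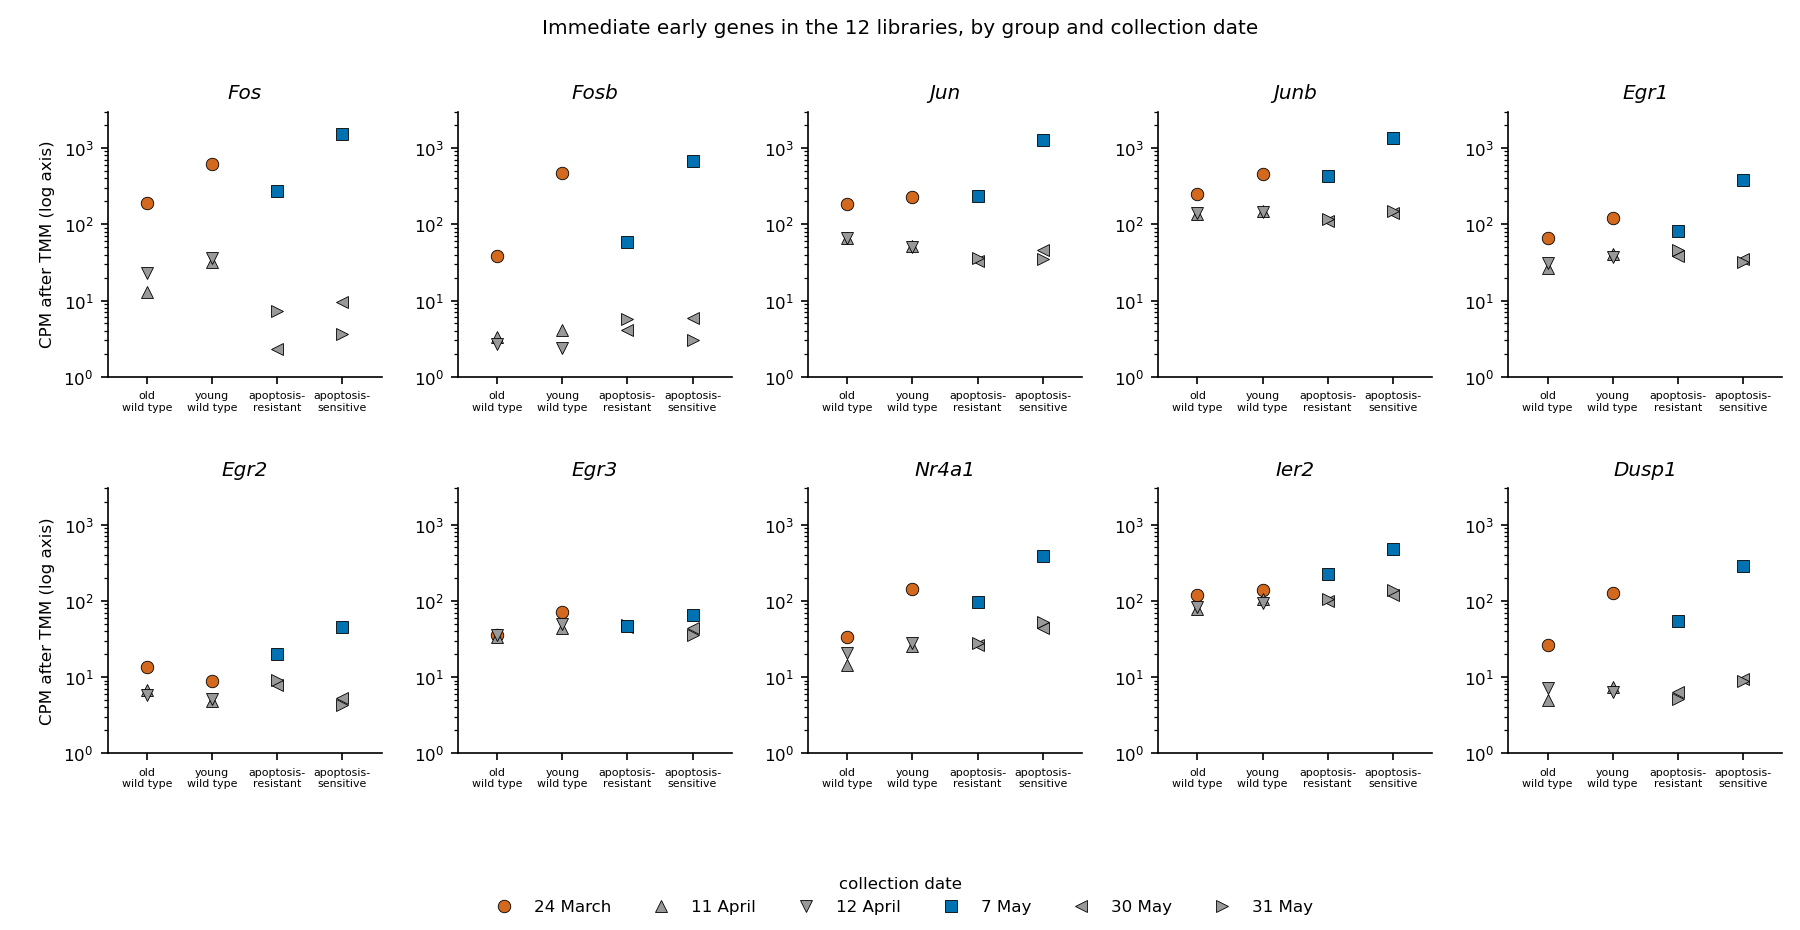
Level of each of the 10 immediate early genes in the 12 libraries, in CPM after TMM scaling on a log axis, by group, with 1 point per library and the collection date given by colour and symbol. The libraries of 24 March (orange circles) and 7 May (blue squares) lie above the others of their group for every gene but Egr3, from 12.9-fold (Fosb, old) to 232-fold (Fos, apoptosis-sensitive) for the most affected gene of a group.

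The order of the group means says little beyond these libraries. By mean, 9 of the 10 genes were highest in apoptosis-sensitive cells and 8 were lowest in old cells. For Fos the means were 75.0 ± 99.3 CPM in old cells, 225 ± 332 CPM in young cells, 95.1 ± 156 CPM in apoptosis-resistant cells and 515 ± 881 CPM in apoptosis-sensitive cells (SD, n = 3 each). Of the 30 neighbouring pairs in those orders, 1 was apart by more than the larger of the pair's SDs. That pair was Egr3 in apoptosis-resistant (46.7 ± 1.81 CPM) and old (34.6 ± 1.36 CPM) cells. By the middle library of a group, 5 of the 10 genes were highest in apoptosis-sensitive cells.

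The genes varied together by collection date. The highest library of every group was that of 24 March or 7 May in 9 of the 10 genes, a pattern found in 9.56% of all genes tested. In 6 of the 10 (Fos, Fosb, Jun, Junb, Egr1 and Dusp1) the 4 highest of the 12 libraries were the 4 of those dates, as in 3.63% of all genes. Both patterns were defined after the values had been seen. Set against the mean of the other two libraries of its group, the old library of 24 March was more than 2-fold higher in 6 of the 10 genes (10.9% of all genes). The young library of 24 March was more than 2-fold higher in 7 (14.7% of all genes), the apoptosis-resistant library of 7 May in 8 (5.44%) and the apoptosis-sensitive library of 7 May in 9 (5.29%). The median over the 10 genes was 2.25-fold (1.03 to 12.9) in old cells, 3.78-fold (1.38 to 146) in young cells, 3.66-fold (0.989 to 57.3) in apoptosis-resistant cells and 10.4-fold (1.62 to 232) in apoptosis-sensitive cells. Over all genes the same medians lay between 0.959 and 1.01. The 10 genes took 0.102% to 0.669% of all counts in the 4 libraries of those dates, and 0.0365% to 0.0461% in the other 8.

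Fos, Fosb and Dusp1 deviated most on both dates. As the mean deviation of a date's pair of libraries from their group means, on the log2 CPM scale, Fosb stood 3.64 above on 24 March and 3.63 above on 7 May. Fos stood 2.55 and 4.69 above, Dusp1 2.10 and 2.73, Jun 1.21 and 2.58, and Nr4a1 1.13 and 1.60. Egr1 followed with 0.94 and 1.49, Junb with 0.82 and 1.72, and Egr2 with 0.65 and 1.5. Ier2 (0.34 and 1.01) and Egr3 (0.21 and 0.23) deviated least. As means of a pair, all 10 genes were below their group means on each of the 4 remaining dates. By construction the deviations cancel out over the dates of the same groups, so a high date lowers the others. In single libraries, Egr3 lay above the mean of the others of its group in old cells on 12 April (1.04-fold). It also did so in apoptosis-resistant cells on 31 May (1.06-fold).

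**Figure D2:**
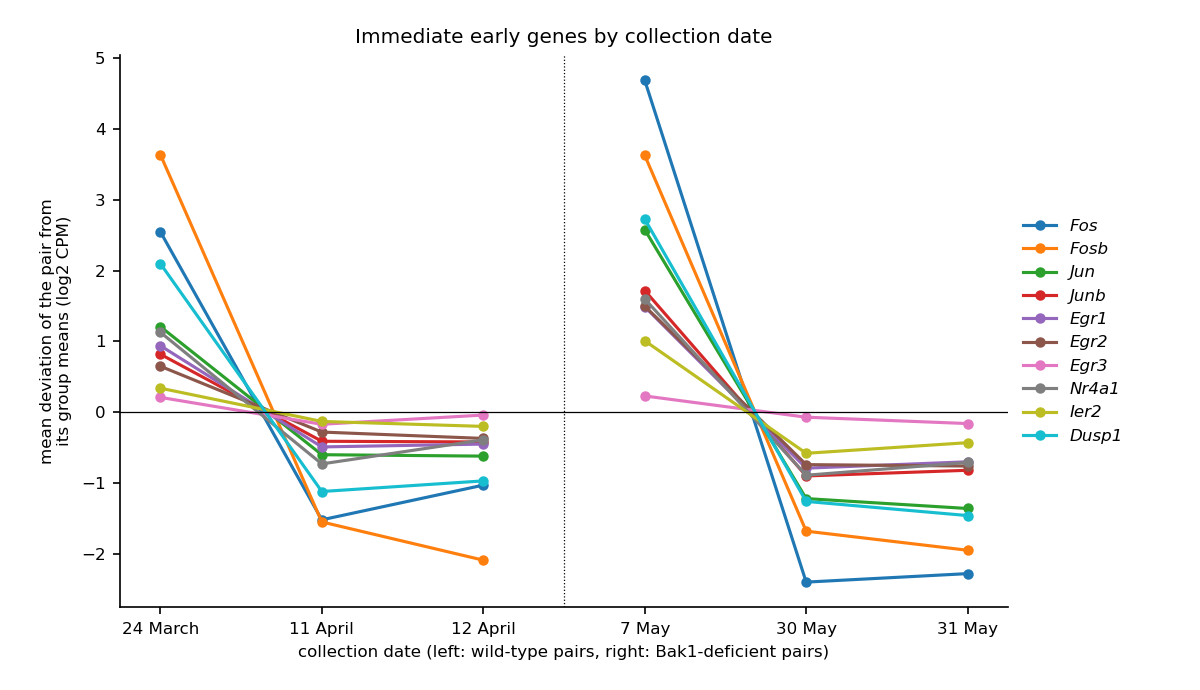
Mean deviation of the 2 libraries of a collection date from their group means, in log2 CPM, for each of the 10 genes (1 line per gene), with the wild-type dates on the left and the dates of the Bak1-deficient groups on the right. Every line is above 0 on 24 March and 7 May, up to 4.69 for Fos, and below 0 on the other dates. By construction the deviations of a gene cancel out over the dates on each side.

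In a test of collection date within the groups, 8 of the 10 genes passed an adjusted p of 0.05 (edgeR's quasi-likelihood test, Benjamini-Hochberg adjustment over 13592 genes). In that test 55.0% of all genes passed, so that the count by itself does not set these genes apart. The adjusted p was 0.000135 for Ier2, 0.00550 for Junb, 0.00642 for Fos, 0.0107 for Egr2, 0.0154 for Dusp1, 0.0201 for Jun, 0.0208 for Nr4a1 and 0.0396 for Fosb. Egr1 (0.0987) and Egr3 (0.222) did not pass. Without the libraries of 24 March 4 genes passed (Junb, Nr4a1, Ier2 and Dusp1), with 16.6% of all genes. Without those of 7 May 8 passed, with 43.1% of all genes. Without either pair none of the 10 passed, with 0.14% of all genes, so that the 4 remaining dates gave no detectable date difference for them. With 1 library left out the count ran from 4 (without the apoptosis-sensitive library of 30 May or the young library of 11 April) to 10 (without the apoptosis-resistant library of 7 May), with 6283 to 7397 of all genes passing, against 7471 with all libraries. Sets of 5 genes remained without the apoptosis-sensitive library of 31 May, without the young library of 24 March, and without the old library of 24 March or of 11 April.

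Markers of other cells and measures of the libraries stood as follows on those dates. The 11 T cell markers summed to 85.1 CPM in the old library of 24 March, against 51.2 and 65.4 CPM in the other old ones, and to 75.7 CPM in the young library, against 37.4 and 40.0 CPM in the other young ones. They summed to 62.2 CPM in the apoptosis-resistant library of 7 May, against 46.6 and 46.4 CPM in its group, and to 45.5 CPM in the apoptosis-sensitive library, against 42.4 and 48.0 CPM. At most 2 of the 11 were at 0 in a library. Granulocyte markers (8 genes) summed to 67.2 to 139 CPM in the 4 libraries of 24 March and 7 May and to 26.4 to 774 CPM in the other 8. Monocyte and macrophage markers (10 genes) summed to 35.5 to 73.6 CPM and 27.5 to 221 CPM in those sets of libraries, erythroid markers (6 genes) to 21.3 to 139 CPM and 33.6 to 292 CPM, and NK cell markers (4 genes) to 0.986 to 7.24 CPM and 2.06 to 13.3 CPM. Stromal markers (7 genes, up to 3 at 0) summed to 3.45 to 21.8 CPM and 6.12 to 172 CPM, megakaryocyte markers (5 genes, up to 4 at 0) to 4.54 to 9.74 CPM and 1.59 to 11.2 CPM, and plasmacytoid dendritic cell markers (5 genes) to 639 to 718 CPM and 699.7 to 885 CPM. Most of the T cell sum was 1 gene, the kinase gene Lck, at 60.1 CPM in the old library of 24 March, against 26.3 and 35.2 CPM, and at 70.6 CPM in the young one, against 34.9 and 34.3 CPM. The other 10 T cell markers summed to 25.0 CPM in the old library of 24 March, against 25.0 and 30.2 CPM, and to 5.09 CPM in the young one, against 2.48 and 5.67 CPM. They summed to 15.5 CPM in the apoptosis-resistant library of 7 May, against 11.2 and 9.33 CPM, and to 3.55 CPM in the apoptosis-sensitive one, against 6.15 and 8.47 CPM. Cd3e, a defining T cell marker, was at 1.08 CPM in the old library of 24 March, against 1.69 and 1.94 CPM. It was at 0 in the young one, against 0.0428 and 0.330. On 7 May Cd3e was at 0.382 CPM in the apoptosis-resistant library, against 0.345 and 0.303. It was at 0.0935 CPM in the apoptosis-sensitive one, against 0.564 and 0.588. Cd3g was at 9.54 CPM in the old library of 24 March, against 5.78 and 3.06. It was at 0.411 CPM in the young one, against 0.300 and 0.396. On 7 May Cd3g was at 1.15 CPM (apoptosis-resistant, others 0.207 and 0.303) and 0.0935 CPM (apoptosis-sensitive, others 0.451 and 0.647). The part of Lck and the other markers in the result was not tested. The mitochondrial share was 1.69% to 3.15% in the 4 libraries and 1.62% to 3.46% in the other 8, and totals were 13474162 to 20760533 and 14785100 to 23539764 counts. In sorted cells counted in bulk, a larger share of responding cells and more RNA in each cell cannot be told apart.

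Old and young cells can be compared within each date. On 24 March, 9 of the 10 genes were lower in the old library (54.9% of all genes were), with a median log2 ratio of -0.93. Fosb was at 38.6 CPM in the old and 476 CPM in the young library, a log2 ratio of -3.62, and Dusp1 (-2.27), Nr4a1 (-2.08) and Fos (-1.68) followed. Egr2 went the other way, with 13.7 CPM in the old and 8.79 CPM in the young library. On 11 April 8 of the 10 genes were lower in the old library (51.2% of all genes), with a median of -0.43, and on 12 April 6 were lower (49.1%), with a median of -0.09. Fos, Egr1, Egr3, Nr4a1, Ier2 and Junb were lower in the old library on all 3 dates, although Junb differed by no more than -0.10 on the log2 scale on both April dates. Egr2 was higher in the old library on all 3.

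None of the 10 genes differed between old and young cells in the test over replicates, where 2.01% of all genes passed (edgeR's quasi-likelihood test, with 1 of the 10 at an unadjusted p below 0.05). DESeq2 called none either and gave no adjusted p for 8 of the 10. The log2 fold change ran from -3.43 ± 2.25 (SE) for Fosb to 0.50 ± 0.79 for Egr2, with a median of -0.66, against -0.03 over all genes. Fos was at -1.58 ± 2.09, Dusp1 at -1.86 ± 1.52, Nr4a1 at -1.50 ± 0.92 and Jun at -0.07 ± 1.23. The median standard error was 0.89 for the 10 genes and 0.31 for all genes, so that only large differences were detectable. For 5 of the genes the sign turned without the young library of 24 March, in a fit that kept the old library of that date. The fold change there was 1.20 for Fos, 2.21 for Fosb, 0.30 for Junb, 0.11 for Egr1 and 0.90 for Dusp1. Without both libraries of 24 March these 5 stayed negative, at -0.92 ± 2.56, -0.16 ± 2.56, -0.06 ± 1.10, -0.44 ± 1.07 and -0.20 ± 1.80 in the same order. They were also negative with the collection date as a block. Jun was at 1.07 without the young library of 24 March. It also turned positive without the old library of 11 April (0.20) or of 12 April (0.18).

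Egr3 was the gene at the unadjusted threshold. Its level was 35.3, 33.1 and 35.5 CPM in old cells, against 70.7, 44.2 and 49.3 CPM in young cells, and the libraries did not overlap (6.96% of all genes were lower without overlap, and 16.1% were apart in either direction). Egr3 differed by -0.66 ± 0.23 on the log2 scale (adjusted p = 0.230, edgeR), at an unadjusted p of 0.0142. With the collection date as a block Egr3 fell by 0.63 ± 0.17 on the log2 scale in old cells (adjusted p = 0.0333), in a fit that called 14.9% of all genes, 7.03% as lower. It was the only one of the 10 called there. Without the libraries of 24 March and 7 May the difference was -0.44 ± 0.12 (adjusted p = 0.0487, 8.38% of all genes called), so that the lower level was also seen in the libraries where the other genes were low. The fit without those of 24 March only rests on the same wild-type libraries. It gave the same difference with a larger error and no call (-0.44 ± 0.23, adjusted p = 0.457, edgeR). Leaving out 1 library at a time gave -0.80 to -0.41. Markers of some other cells were higher in old cells beside this difference. With the block 7 of 11 T cell, 4 of 4 NK cell, 5 of 9 monocyte and macrophage, 2 of 5 plasmacytoid dendritic cell and 6 of 6 stromal markers rose with age. Cd3g (4.05 ± 0.76), Ncr1 (4.27 ± 0.88), Adgre1 (2.34 ± 0.42) and Cxcl12 (3.79 ± 0.83) also rose without it. None of the 8 granulocyte, 6 erythroid and 1 megakaryocyte markers tested was called for age with the block. Stromal markers summed to 21.8 to 172 CPM in old and 3.45 to 23.8 CPM in young libraries, and NK cell markers to 7.24 to 13.3 CPM and 0.986 to 3.47 CPM. The B cell markers summed to 16187 to 20140.0 CPM in old and 21719 to 22876 CPM in young libraries, and 2 of the 10 fell with the block. The part of other cells in this and the other differences with age was not tested.

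The apoptosis-resistant and apoptosis-sensitive libraries were furthest apart, by the median of the 10 genes, on 7 May. On 7 May all 10 genes were lower in the apoptosis-resistant library (50.5% of all genes were), with a median log2 ratio of -2.11 and a range of -3.53 (Fosb) to -0.47 (Egr3). Fos, at 275.6 CPM in the apoptosis-resistant and 1532.5 CPM in the apoptosis-sensitive library, had a ratio of -2.48, and Jun (-2.47), Dusp1 (-2.41), Egr1 (-2.18) and Nr4a1 (-2.04) were close to it. On 30 May 7 of the 10 were lower in the apoptosis-resistant library (52.0% of all genes), with a median of -0.42, and on 31 May 4 were lower (49.8%), with a median of 0.26. Nr4a1, Ier2, Junb and Dusp1 were lower in the apoptosis-resistant library on all 3 dates. Nr4a1 had ratios of -0.76 on 30 May and -0.91 on 31 May.

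**Figure D3:**
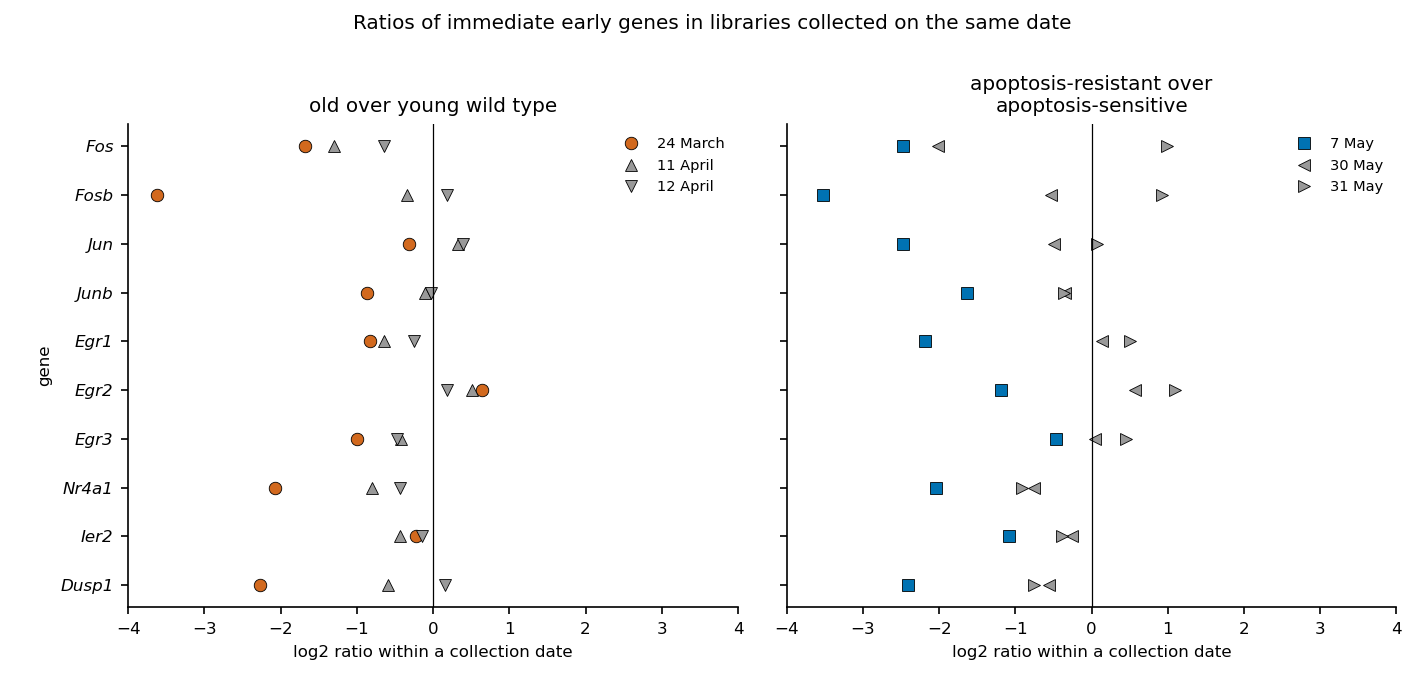
Log2 ratio of each gene between the 2 libraries of a collection date, old over young wild type on the left and apoptosis-resistant over apoptosis-sensitive on the right, with 1 point per date. Points left of 0 are lower in the old or in the apoptosis-resistant library; on 24 March the ratios run from -3.62 to 0.64 and on 7 May from -3.53 to -0.47, while those of the other dates lie nearer 0 for most genes.

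None of the 10 genes differed between apoptosis-resistant and apoptosis-sensitive cells in edgeR's test over replicates, where 0.0441% of all genes passed, and none had an unadjusted p below 0.05 (4.9% of all genes had). DESeq2 called none, again with no adjusted p for 8. All 10 fold changes were negative, from -3.32 ± 2.23 (Fosb) to -0.04 ± 0.23 (Egr3) on the log2 scale (estimate ± SE), with a median of -1.56 against -0.02 over all genes. Fos was at -2.44 ± 2.15, Dusp1 at -2.21 ± 1.53, Jun at -2.18 ± 1.28, Nr4a1 at -1.71 ± 0.91, Egr1 at -1.41 ± 0.85, Junb at -1.31 ± 0.87 and Ier2 at -0.78 ± 0.49. Without the apoptosis-sensitive library of 7 May all 10 were positive, from 0.05 for Nr4a1 to 3.87 for Fos. Without both libraries of 7 May the fold changes ran from -0.84 ± 0.77 for Nr4a1 to 0.83 ± 0.46 for Egr2. None of the 10 was without overlap between the groups, against 8.31% of all genes lower without overlap and 14.6% apart in either direction. The date block called none of the 10, with 3.41% of all genes called and 1.97% called lower, and the lowest adjusted p was that of Ier2 (0.0534).

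The age difference and the genotype difference were also set against each other, in a test of their difference. None of the 10 genes passed, and none had an unadjusted p below 0.05, with 0.25% of all genes passing (edgeR). The date block called none of the 10 there either, with 7.03% of all genes called and 3.52% called in the negative direction. Apoptosis-sensitive and young cells, and apoptosis-resistant and young cells, share no collection date, so that date and genotype cannot be told apart between them. None of the 10 passed in either comparison, where 0.0% and 0.162% of all genes did. Ier2 had an unadjusted p of 0.0417 between apoptosis-sensitive and young cells, at a log2 fold change of 1.13 ± 0.49.

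Other genes of the same pathways show how far the pattern reached. Of 8 other AP-1 and ATF genes tested, 5 passed the date test (55.0% of all genes did) and none had its 4 highest libraries on 24 March and 7 May. Their median deviation was -0.17 on 24 March and 0.44 on 7 May, on the log2 CPM scale, against 1.03 and 1.66 for the 10 immediate early genes. Jund, a JUN protein known for its steady expression, had 422, 686 and 563 CPM in old cells, against 821, 682 and 639 CPM in young cells. It had 1349.8, 619 and 609.8 CPM in apoptosis-resistant cells, against 3460.2, 661 and 693 CPM in apoptosis-sensitive cells, and passed the date test (adjusted p = 0.0241). Jund was therefore high on 7 May in both groups, and not on 24 March in old cells. The small MAF proteins, which lack an activation domain, were split: Maff (0.00411) and Mafk (0.0197) were high on 7 May, with deviations of 1.55 and 0.47, and Mafg (0.00563) was low, with -0.29. With the date block Batf (0.80 ± 0.20, adjusted p = 0.0201) and Jdp2 (1.79 ± 0.48, 0.0299), both AP-1 partners, rose with age. They were the only 2 of the 8 called, in a fit that called 14.9% of all genes. Both rose beside the markers of other cells that rose with age.

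Among 4 other EGR and NR4A genes, 1 passed the date test, against 55.0% of all genes, and it was low on both dates. Nab1, a corepressor that binds EGR proteins, deviated by -0.53 on 24 March and -0.18 on 7 May (adjusted p = 0.000847). Among 26 other early response genes 11 passed, against 55.0% of all genes. In 3 of them the 4 highest libraries were those of 24 March and 7 May, as in 3.63% of all genes. The median deviations were 0.05 and 0.55. Gadd45b (adjusted p = 0.000671), Csrnp1 (0.000832), Pim1 (0.00323) and Zfp36 (0.00343) led the list. Zfp36, whose product speeds the decay of AU-rich mRNAs, had 421, 291 and 299 CPM in old cells, against 787, 477 and 430.2 CPM in young cells. It had 652, 339 and 339.9 CPM in apoptosis-resistant cells, against 1172, 282 and 281 CPM in apoptosis-sensitive cells. Zfp36 was thus high on both dates in all 4 groups, by less than Fos or Jun. Csrnp1 was high on 7 May (0.33) and low on 24 March (-0.52). With the date block Btg2 (-0.51 ± 0.11, adjusted p = 0.0111), Zfp36l1 (-0.58 ± 0.13, 0.0125) and Sgk1 (-0.68 ± 0.17, 0.0249) fell with age. They were the only 3 of the 26 called for age, against 14.9% of all genes. Mcl1 (-0.59 ± 0.10, 0.0106), which codes for a survival protein of the BCL-2 family, and Nfkbia (-0.43 ± 0.08, 0.0194), which codes for an inhibitor of NF-kB, were lower in apoptosis-resistant cells in that fit. No other of the 26 was called for genotype, against 3.41% of all genes.

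The phosphatases and inhibitors that feed back on MAP kinases gave 7 of 13 genes past the date test, near the 55.0% of all genes. Dusp2, a nuclear phosphatase of lymphocytes, had the lowest p (adjusted p = 4.58e-05). It had 219.7, 121 and 118 CPM in old cells, against 624, 212 and 215 CPM in young cells. It had 407, 159 and 156 CPM in apoptosis-resistant cells, against 764, 215 and 208 CPM in apoptosis-sensitive cells. Dusp2 followed Dusp1 on both dates and was lower in the old library on every date. With the block Dusp2 fell with age (-1.06 ± 0.14, adjusted p = 0.00143) and Dusp4 rose (0.90 ± 0.13, 0.00176). No other of the 13 was called for age, where 14.9% of all genes were, so that the count is near that share. Dusp5 (-1.82 ± 0.22, 0.00166), Dusp10 (-1.08 ± 0.13, 0.00170) and Spred1 (-1.05 ± 0.21, 0.0213) were lower in apoptosis-resistant cells. They were the only 3 of the 13 called for genotype, against 3.41% of all genes. Dusp5, a phosphatase of MAP kinases, had 6.59, 5.52 and 5.82 CPM in apoptosis-resistant cells, against 28.4, 14.9 and 21.5 CPM in apoptosis-sensitive cells. The groups did not overlap for Dusp5, as for 8.31% of all genes in this direction and 14.6% in either direction. Dusp5 was thus lower in the apoptosis-resistant library on each date. Dusp16 (-0.67 on 24 March and -0.27 on 7 May) and Dusp7 (-0.48 and -0.52) passed the date test in the opposite direction to Dusp1.

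Of the 17 kinases and factors upstream, 10 passed the date test, near the 55.0% of all genes, and the median deviations were -0.20 and -0.13. Elk4 (adjusted p = 0.00021), an SRF partner, was low on 7 May (-0.76) and high on 24 March (0.31). Rps6ka3 (0.00065), which codes for a kinase downstream of MAP kinases, and Mrtfb (0.000872), which codes for a coactivator of SRF, were low on both dates. With the block Mapk9 rose with age (0.38 ± 0.08, adjusted p = 0.0106), and Mapk14 (-0.37 ± 0.08, 0.0118), Creb1 (-0.41 ± 0.09, 0.0131) and Mrtfa (-0.37 ± 0.10, 0.0302) fell. No other of the 17 was called for age, against 14.9% of all genes. Of 11 heat shock genes 4 passed the date test (Hsp90ab1, Hspe1, Hspa8 and Hspd1), against 55.0% of all genes, with median deviations of -0.22 and 0.19. Hspa8, a constitutive chaperone, had 63.0, 121 and 139 CPM in old cells, against 163.7, 162 and 367 CPM in young cells. Hspa8 was highest in the young library of 12 April among these 6, and none of the 11 heat shock genes had its 4 highest libraries on 24 March and 7 May. With the block Hspa8 (-1.07 ± 0.18, adjusted p = 0.00677), Hspe1 (-0.46 ± 0.12, 0.0249) and Hsph1 (-1.80 ± 0.34, 0.0275) fell with age. They were the only 3 of the 11 called for age, against 14.9% of all genes. Hsp90ab1 (-0.73 ± 0.13, 0.0110), Hspe1 (-0.57 ± 0.12, 0.0233), Hspa8 (-0.92 ± 0.18, 0.0306) and Hspd1 (-0.61 ± 0.14, 0.0372) were lower in apoptosis-resistant cells. No other of the 11 was called for genotype, against 3.41% of all genes. Without the block none of the genes in these 6 lists was called for age or for genotype.

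**Figure D4:**
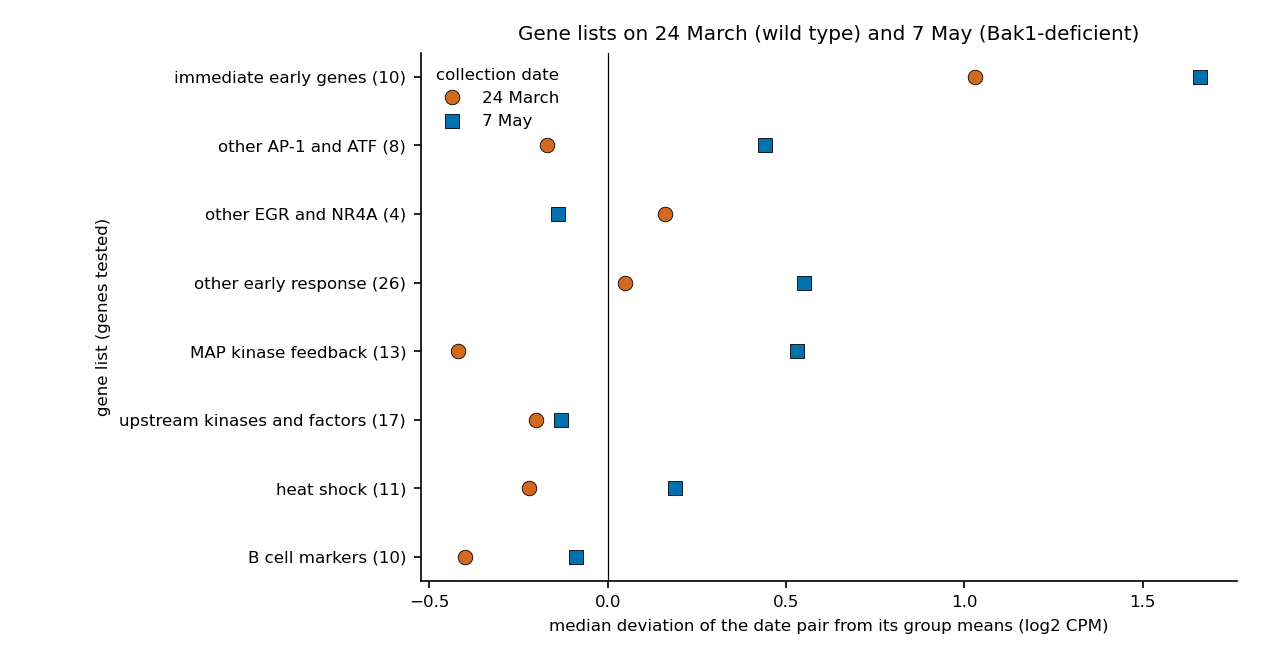
Median over each gene list of the deviation of a date's libraries from their group means, in log2 CPM, on 24 March (orange circles) and 7 May (blue squares), with the number of genes tested in brackets. The 10 immediate early genes stand at 1.03 and 1.66, and the other lists plotted, 6 pathway lists and the B cell markers, lie between -0.42 and 0.55.

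The genes whose pattern was most like the mean pattern of the 10 were looked for among 9914 genes with a mean of at least 5 CPM. Likeness was the mean absolute difference between standardized log2 CPM over the 12 libraries, for which the median gene had 1.03 SD. The closest were Riok3 (0.171 SD), Klf4 (0.180), Atf4 (0.195), Eif1 (0.227) and Ppp1r15a (0.237). The members themselves ran from 0.144 (Egr1 and Junb) to 0.634 (Egr3). Each member is part of the mean pattern, which lowers its own distance by construction. Klf4, a zinc finger factor known to restrain B cell proliferation, had 16.2, 6.65 and 7.42 CPM in old cells, against 88.9, 7.15 and 7.39 CPM in young cells. It had 31.1, 10.0 and 8.24 CPM in apoptosis-resistant cells, against 197, 13.9 and 7.23 CPM in apoptosis-sensitive cells, with the same 4 highest libraries in the same order as for Fosb. Ppp1r15a, which codes for the regulatory subunit of an eIF2 phosphatase, had 77.3, 25.7 and 30.2 CPM in old cells, against 218, 30.0 and 25.9 CPM in young cells. It had 76.9, 21.5 and 23.7 CPM in apoptosis-resistant cells, against 246, 29.9 and 25.1 CPM in apoptosis-sensitive cells. Atf4, the transcription factor of the integrated stress response, was at 238, 134 and 152 CPM in old cells, against 304.9, 146 and 137 CPM in young cells. Atf4 was at 265, 145 and 149 CPM in apoptosis-resistant cells, against 376, 160.3 and 149 CPM in apoptosis-sensitive cells, a narrower range with the same high libraries. Atf4 (adjusted p = 6.89e-05), Eif1 (8.18e-05) and Ppp1r15a (0.0225) passed the date test, and Klf4 (0.0828) and Riok3 (0.387) did not. Riok3 had the same 4 highest libraries at a small amplitude, with 132 to 156 CPM in all 12.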

How the data were processed

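RNA of sorted mature B cells was sequenced from 12 samples. A Qiagen extraction kit and the TruSeq RNA v2 protocol for polyadenylated RNA were used, per the labels' protocols. The deposited values are whole-number read counts per Entrez gene; the authors used Subread and featureCounts with mm10, per the submitters' processing notes. Strand setting and annotation are not given in the sources used here, so that overlapping genes could share reads. Among the 10 genes only Egr2 overlaps another RefSeq gene, Gm32255, which is not a row of the table.

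Groups came from the labels. Symbols were matched for 25275 of 27179 genes through RefSeq (GRCm38.p6). Genes were kept by edgeR's filterByExpr (minimum count 10), which left 13592, scaled by TMM and fitted in 1 quasi-likelihood model of the 4 groups (robust, 8 residual degrees of freedom, edgeR 4.0.16 in R 4.3.3), with Benjamini-Hochberg adjustment and a threshold of 0.05. The standard error is the log2 fold change divided by the square root of F. Exon lengths are from GENCODE M21. The fit was tested on simulated data. Alternatives were DESeq2 1.42.0, its size factors, no filter, only the libraries compared, left-out libraries or dates, and a block by collection date. The labels give the shared days, so the replicate numbers pair the libraries: deviations from the group means correlated at 0.686, 0.45 and 0.519 (wild type) and 0.235, 0.26 and 0.409 (Bak1-deficient) within pairs. Across unlike dates of the same groups the correlation ran from -0.56 to 0.309 (wild type) and from -0.319 to 0.162 (Bak1-deficient). The p-values of the group fit measure the spread between 3 libraries a group. Those of the date test and of the block measure the spread within date pairs after the group difference. These fits have 4 residual degrees of freedom.

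The 10 genes and the 15 other lists (153 genes, 139 tested) were chosen with earlier results of these data known. Per list and comparison, up to 4 called genes with the lowest p were named, and the 5 genes with the most similar pattern; some genes that this rule names are not reported here. The test of date, the fits without 7 May, the named calls under the block and the other genes described by library were chosen after values had been seen, as was the T cell sum without Lck.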

Additional observations from a re-analysis of the deposited data

How the results depend on the processing

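The comparisons over replicates gave no call among the 10 genes under most of the settings tried. Between old and young cells, 1 gene (Egr3) was called with the replicate block by collection date and 1 (Egr3) without both the 24 March and 7 May pairs, and 0 in every other fit. No other call on the 10 genes changed with the block, which cannot be estimated between groups that share no date. For collection date, 4 genes were called without the 24 March pair, 0 without both pairs, and 4 to 10 with 1 library left out. DESeq2's likelihood ratio test called 9 of the 10 and 7339 of all genes, and 6 and 7631 were called without the filter on low counts, against 8 and 7471.

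Several signs turned, all among differences that were not called. For age, the log2 fold change of Jun was 0.13 with the block, 0.36 without the 24 March pair and 0.36 without both pairs. For genotype it was, without the 7 May pair and without both pairs, 0.13 and 0.13 for Fosb, 0.32 and 0.32 for Egr1, 0.83 and 0.84 for Egr2, and 0.24 and 0.24 for Egr3; with the block it was 0.08 for Egr2 and 0.00 for Egr3. With 1 library left out, the age fold changes ran from -3.66 to 1.20 (Fos), -5.75 to 2.21 (Fosb), -0.74 to 1.07 (Jun), -0.83 to 0.30 (Junb), -1.19 to 0.11 (Egr1) and -2.93 to 0.90 (Dusp1). Those of genotype ran from -6.73 to 3.87 (Fos), -5.54 to 2.37 (Fosb), -3.71 to 1.33 (Jun), -2.27 to 0.62 (Junb), -1.88 to 0.74 (Egr1), -1.11 to 1.39 (Egr2), -0.20 to 0.25 (Egr3), -2.57 to 0.05 (Nr4a1), -1.26 to 0.17 (Ier2) and -4.12 to 1.29 (Dusp1). The cause was not tested.

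Counts over all genes moved as well. For age, 273 genes were called, against 2028 with the block, 746 by DESeq2, 1 with only the 6 libraries compared, 1139 without both pairs and 75 (without the young library of 11 April) to 267 with 1 library left out. For genotype, 6 were called, against 463 with the block, 127 by DESeq2, 11 without the filter, 31 without the 24 March pair, 0 without the 7 May pair, 76 without both and 0 (without the apoptosis-sensitive library of 30 May or the apoptosis-resistant library of 7 May) to 13 with 1 library left out. Fold changes of single genes were recomputed for age and genotype only. The median standard error of the 10 genes was 0.89 against 0.31 over all genes, and the effect of depth on it was not tested.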

Other observations

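A few genes outside the naming rule were picked after their values had been seen, because single libraries stood out. Cd69, an early activation marker of lymphocytes, had 29.4, 37.0 and 39.1 CPM in old cells (24 March, 11 April, 12 April), against 108, 30.4 and 35.6 CPM in young cells. It had 56.5, 43.7 and 35.2 CPM in apoptosis-resistant cells (7 May, 30 May, 31 May), against 311, 63.6 and 43.2 CPM in apoptosis-sensitive cells. Myc had 150.1 CPM in the apoptosis-sensitive library of 7 May, against 39.4 and 40.7 CPM in the other libraries of its group, and 82.1 CPM in the young library of 24 March, against 39.0 and 40.0 CPM. Atf3 had 16.6 CPM in the apoptosis-sensitive library of 7 May and 0.198 to 1.81 CPM in the other 11. The inducible heat shock gene Hspa1b had 231 CPM in the apoptosis-sensitive library of 7 May and 56.7 CPM in that of 30 May. Hspa1b also had 35.9 CPM in the young library of 24 March and 16.8 CPM in that of 12 April, so that its high libraries were not those of the immediate early genes alone. None of Cd69, Myc, Atf3 and Hspa1b was called in the comparisons of age or genotype.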
